A study of Mus musculus with 16 samples.

Results

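The drug-metabolising enzymes of mouse white fat were read from bead arrays. They were the cytochrome P450 families 1 to 4, the alpha, kappa, mu, omega, pi, theta and zeta glutathione S-transferases, the UDP-glycosyltransferases and the sulfotransferases. Members were chosen by name, under a rule set with earlier results of these data known. A probe belonged where its gene name began with CYP, GST, UGT or SULT in the pattern of these families. Cyp1a1 and Cyp1b1 were left out. The rule took 102 of 17916 gene names, with 139 of 25697 probes. Of these, 44 genes with 56 probes passed the filter on dim probes, which asked for detection (p under 0.05) on 4 or more of the 16 arrays. Over the whole array 11050 genes with 15052 probes passed it. All mice were male C57BL/6J made obese on the high-fat chow D12492 (60% of energy from fat), were housed singly and were taken from 17 to 21 weeks of age on the test diets. Scoparia mice received that same diet with 1% by weight of an ethanolic extract of the herb Artemisia scoparia for 4 weeks, and control mice received it without the extract. The 4 groups of 4 arrays were inguinal fat (iWAT, a subcutaneous depot) of scoparia mice, iWAT of control mice, epididymal fat (eWAT, a visceral depot) of scoparia mice and eWAT of control mice. The labels number the animals alike for iWAT and eWAT, which makes 8 mice with an array from each depot, and there was no lean group.

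Cytochrome P450 enzymes are haem proteins that insert oxygen into drugs, steroids and fatty acids, with electrons handed on by the reductase Por. Families 1 to 3 mainly act on foreign compounds and steroids, and family 4 mainly hydroxylates fatty acids and eicosanoids at their ends. Conjugating enzymes then attach a polar group: glutathione (Gst), a sugar (Ugt) or sulfate (Sult). Liver holds the most of this system, while fat uses parts of it to handle lipid peroxidation products, steroids and lipophilic compounds.

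Which of these genes had a measurable signal in fat differed by family. Glutathione S-transferases were the most complete family, with 16 of 20 genes tested and 15 genes detected on 16 of 16 arrays. Of the P450 genes, 10 of 37 in family 2 and 8 of 13 in family 4 were tested, and none of the 6 genes in families 1 and 3 was (0 of 1 and 0 of 5). For Ugt genes 4 of 16 were tested, and for Sult genes 6 of 10. By the best probe of each gene, 28 of the 102 genes were detected on 16 arrays and 42 on 0 arrays. The P450 genes that stayed below the filter include Cyp1a2, all Cyp3a genes and, apart from Cyp2c70, all Cyp2c genes. No Ugt2 gene passed it either. A probe detected on 0 arrays gives a signal within the range of the negative control beads, which is no proof that the gene is silent.

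**Figure D1:**
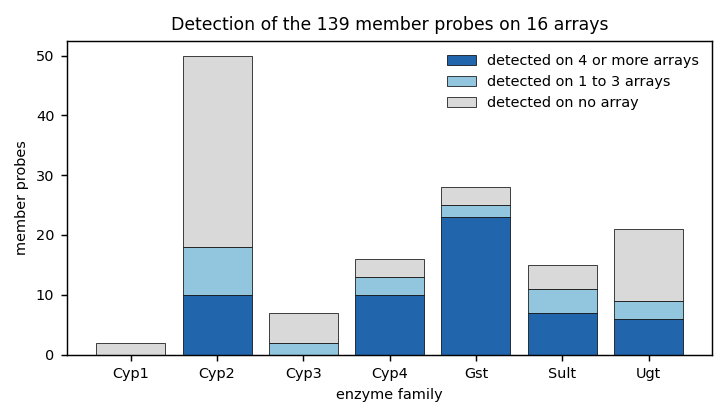
Number of member probes (vertical axis) in each enzyme family (horizontal axis), split by whether a probe was detected on 4 or more, 1 to 3 or 0 of the 16 arrays. In the Gst family 23 of 28 probes were detected on 4 or more arrays, and in the Cyp2 family 10 of 50.

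Between 50.5% and 56.2% of all probes were detected per array, and 45 to 56 member probes. The number of arrays limits the precision. Values below are normalized signals on the log2 scale, given per array in the order of the replicate number, and each difference is on that scale ± SE. A mean of a group stands with its SD over n = 4 arrays. Signals of different probes are not set against each other, since each probe has its own efficiency. In bulk tissue, fewer cells of a type and less RNA per cell cannot be told apart. Over the 44 tested members, the median SD within a group was 0.25 in iWAT of scoparia mice, 0.32 in iWAT of control mice, 0.27 in eWAT of scoparia mice and 0.30 in eWAT of control mice. Arrays 1 and 4 of iWAT control stood apart from arrays 2 and 3 in several members, for example at 6.46 and 6.53 against 5.23 and 5.51 for Cyp2b10. Array 2 of eWAT control stood apart too, at 8.53 for Gsta4 where the other 3 arrays had 6.24 to 6.66. Calls of members that were lost without 1 of these arrays are named with their adjusted p.

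The tissue was checked against cell type markers. All 8 white adipocyte markers were detected on all 16 arrays. Of 8 hepatocyte markers, Alb, Fgb and Tat were detected on 0 arrays, Apoh on 1, Ambp on 5, Apoa1 on 8, Ttr on 12 and Serpina1a on 16. Their summed signal ran from 148 to 439 in iWAT of scoparia mice and from 78.2 to 176 on 3 iWAT control arrays, with 1591 on iWAT control array 4. In eWAT it ran from 61 to 367 in scoparia mice and from 68.8 to 694 in control mice, highest on array 4 of each group. Of 7 epididymal epithelium markers on the array, Crisp1, Defb12, Lcn5 and Rnase9 were detected on 0 arrays, Adam7 on 1, Lcn8 on 15 and Cst11 on 16, with sums of 71.9 to 143 over all arrays. The part of such cells in the enzyme signals was not tested.

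The first comparison asks what the extract did to these enzymes in inguinal fat. Of the 16 tested glutathione S-transferases, 4 fell past the threshold in iWAT of scoparia mice (Gsto2, Gstm4, Gstp2 and Gstt3) and 12 did not pass, and 1 of 18 P450 genes fell, Cyp4f14. All 5 calls were lost in a fit of the 8 iWAT arrays alone, and without iWAT control array 1 or iWAT control array 4. No member rose (0 of 44, beside 4.41% of all genes), and 0 of 6 Sult and 0 of 4 Ugt genes passed. The threshold here and below is a Benjamini-Hochberg adjusted p under 0.05 over all 11050 genes in limma. The 5 calls are 11.4% of the tested members, beside 8.80% of all genes called in either direction and 4.39% called lower. Stricter filters removed this excess over calls in either direction. With detection p under 0.01 on 4 or more arrays, 4 of 39 members were called, beside 11% of all genes. With detection on all 4 arrays of a group, 4 of 39 were called, beside 11.7%. At an unadjusted p under 0.05 there were 17 members of 44, beside 32.8% of all genes.

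Gsto2, an omega-class enzyme with dehydroascorbate reductase activity, had signals of 5.66, 5.85, 5.69 and 5.40 in iWAT of scoparia mice and 6.58, 6.85, 6.85 and 6.41 in iWAT of control mice. All 4 scoparia arrays were below all 4 control arrays. The difference was -1.02 ± 0.25, which is 2.03-fold lower (limma, adjusted p = 0.03). A second Gsto2 probe differed by -0.55 ± 0.20 and did not pass (adjusted p over all probes in limma = 0.0802). Gsto1, its neighbour on chromosome 19 and an omega-class reductase as well, had a difference of -0.19 ± 0.17 with overlapping arrays.

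Mu-class enzymes conjugate glutathione to aromatic and epoxide substrates, and their genes lie side by side on chromosome 3. Gstm4 had 7.46, 7.24, 7.07 and 7.03 in iWAT of scoparia mice against 8.25, 7.96, 7.71 and 8.64 in iWAT of control mice. Again the groups did not overlap. It fell by 0.94 on the log2 scale (SE 0.27, limma adjusted p = 0.0423). Gstm1, Gstm5 and Gstm6 did not overlap between the diets either but missed the threshold, with differences of -0.55, -0.75 and -0.91 (limma adjusted p = 0.0794, 0.0725 and 0.0728). A second Gstm6 probe differed by -0.31 ± 0.30. For Gstm2 the difference was -0.38 ± 0.19. Coding sequences in this class are alike, and whether the probes separate them could not be checked, since probe sequences were not used here.

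The pi class has a pair of neighbouring genes on chromosome 19, Gstp1 and Gstp2. Gstp2 had 7.23, 6.98, 7.20 and 7.76 in iWAT of scoparia mice, against 8.06, 7.75, 7.94 and 8.33 in iWAT of control mice. The groups touched in 1 pair of arrays, scoparia array 4 and control array 2. It fell by 0.73 on the log2 scale (SE 0.20, limma adjusted p = 0.0373). Gstp1 had 10.64, 10.57, 10.69 and 11 in iWAT of scoparia mice and 11.41, 11.14, 10.86 and 11.57 in iWAT of control mice, a difference of -0.52 ± 0.19 that missed the threshold (limma adjusted p = 0.0772). Its other probes differed by -0.60 and -0.70. Whether these probes separate Gstp2 from Gstp1 could not be checked either, since probe sequences were not used here. The promoters of this pair are shown because the probes of both genes had lower signals together. They run from 250 bases before to 50 bases after the start of the transcript, from RefSeq on GRCm38.p6, minus strand, chr19:4037863-4038162 for Gstp1 and chr19:4042172-4042471 for Gstp2. Capitals mark the AP-1 site TGAGTCA, present in both, and the xenobiotic response element core GCGTG, present in Gstp1.
Gstp1: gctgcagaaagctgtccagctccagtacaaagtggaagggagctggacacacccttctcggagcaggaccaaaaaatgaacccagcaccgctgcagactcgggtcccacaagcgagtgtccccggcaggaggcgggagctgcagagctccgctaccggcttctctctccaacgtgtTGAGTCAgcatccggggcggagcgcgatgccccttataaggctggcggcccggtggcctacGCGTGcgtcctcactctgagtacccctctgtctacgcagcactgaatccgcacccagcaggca
Gstp2: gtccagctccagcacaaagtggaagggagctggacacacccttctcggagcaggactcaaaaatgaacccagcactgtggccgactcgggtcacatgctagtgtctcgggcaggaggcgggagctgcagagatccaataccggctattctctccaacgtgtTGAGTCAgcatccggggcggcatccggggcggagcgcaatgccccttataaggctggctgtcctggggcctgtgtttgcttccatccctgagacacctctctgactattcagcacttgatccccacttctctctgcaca
In an alignment of these stretches 243 of 318 columns were identical (76.4%).

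Theta-class enzymes act on small halogenated compounds and organic hydroperoxides, and Gstt3 and Gstt1 are neighbours on chromosome 10. Gstt3 had 9.59, 9.65, 9.39 and 9.09 in iWAT of scoparia mice against 9.80, 10.31, 10.05 and 10.34 in iWAT of control mice. The groups did not overlap, and it fell by 0.70 on the log2 scale (SE 0.19, limma adjusted p = 0.0379). Gstt1 had 10.12, 10.13, 10.02 and 10.41 in iWAT of scoparia mice against 10.79, 11.02, 10.79 and 10.76 in iWAT of control mice. These groups did not overlap either, but the difference of -0.67 ± 0.23 missed the threshold (limma adjusted p = 0.0701). For Gstt2 it was -0.35 ± 0.26. The promoters of Gstt3 (chr10:75781373-75781672) and Gstt1 (chr10:75797682-75797981), both on the minus strand of GRCm38.p6, are shown for contrast with the pi pair, since this pair too had lower signals together. They are all in lower case because none of the motifs searched was found. For Gstt3 2 starts are listed, and only the first was searched.
Gstt3: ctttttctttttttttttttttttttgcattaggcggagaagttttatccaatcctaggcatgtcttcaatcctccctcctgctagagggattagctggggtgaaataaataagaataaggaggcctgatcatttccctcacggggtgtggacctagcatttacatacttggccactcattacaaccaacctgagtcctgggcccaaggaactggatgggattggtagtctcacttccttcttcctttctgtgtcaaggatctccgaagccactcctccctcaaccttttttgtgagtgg
Gstt1: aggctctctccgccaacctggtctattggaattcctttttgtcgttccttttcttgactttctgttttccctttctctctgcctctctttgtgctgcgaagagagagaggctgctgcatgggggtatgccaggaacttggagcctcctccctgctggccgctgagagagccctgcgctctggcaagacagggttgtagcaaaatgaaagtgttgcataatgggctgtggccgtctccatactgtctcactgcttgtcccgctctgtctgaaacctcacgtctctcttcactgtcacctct
Here 46% of the aligned columns were identical. Unrelated promoters were not aligned for comparison.

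The motifs were searched on both strands in the same 300-base window of 27025 RefSeq promoters, at the first start listed for each gene. The xenobiotic response element core GCGTG was found in 32.5% of them, the antioxidant response element core TGACNNNGC in 12.5%, TATAAA in 14.2% and the AP-1 site TGAGTCA in 5.17%. Of the 39 tested members with a promoter in the table, 12 held the first (30.8%), 4 the second (10.3%), 6 the third (15.4%) and 5 the AP-1 site (12.8%). The AP-1 site was added after the sequences had been read, and its 5 members include Gstp1 and Gstp2, printed above. Its 12.8% beside 5.17% is therefore no test. Among the 5 genes that fell, Cyp4f14 held GCGTG and Gstp2 the AP-1 site. A match is a run of letters, not a shown binding site.

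Cyp4f14, which hydroxylates leukotriene B4 and fatty acids, had 4.54, 4.56, 4.47 and 4.66 in iWAT of scoparia mice against 4.80, 5.62, 5.26 and 5.20 in iWAT of control mice. It was detected on 0 of 4 scoparia arrays and 3 of 4 control arrays, so that it is at least 1.18-fold lower in scoparia (limma adjusted p = 0.0366). This bound sets the control mean against, on each scoparia array, the higher of the probe's own value and the lowest value of a detected probe. Over both depots the probe was detected on 4 arrays, all of control mice. It thus passed the filter only through the diet where it was higher. With a normexp offset of 50 in place of 16 Cyp4f14 was not called. Its difference ran from -0.89 to -0.32 over the 27 other settings in which it was tested. Its neighbour on chromosome 17, Cyp4f13, differed by -0.23 ± 0.15 with a mean of 9.93 ± 0.12 in iWAT of scoparia mice and 10.16 ± 0.17 in iWAT of control mice. Cyp2j9, an arachidonic acid hydroxylase, differed by -0.56 ± 0.19 and missed the threshold (limma adjusted p = 0.0641).

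**Figure D2:**
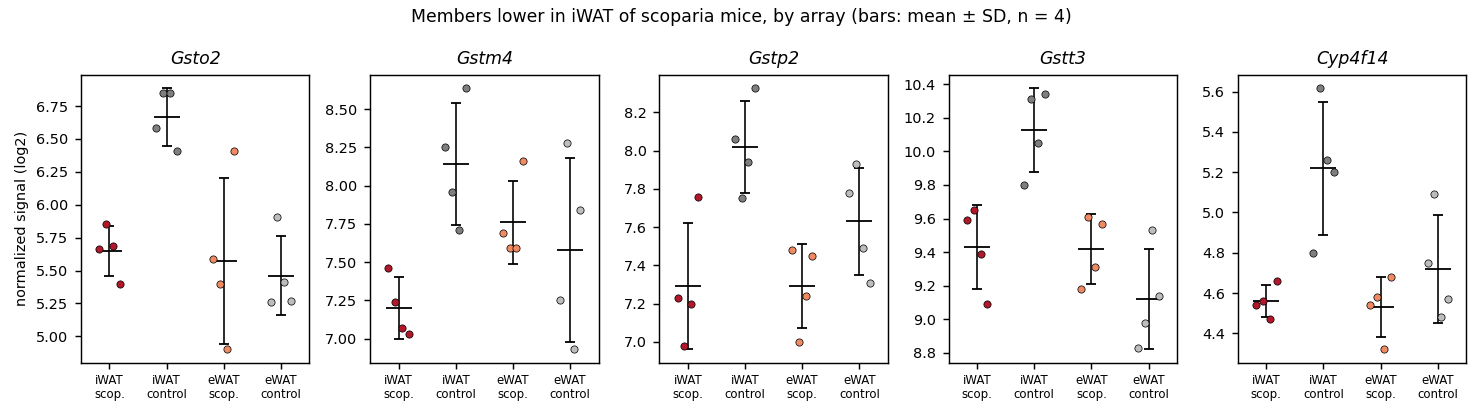
Normalized log2 signal (vertical axis) of the 5 members called lower in iWAT of scoparia mice, 1 point per array in the 4 groups, with bars for the mean ± SD of 4 arrays. In iWAT the scoparia arrays lie below all control arrays for Gsto2, Gstm4, Gstt3 and Cyp4f14, and the eWAT groups overlap for all 5 genes.

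Direction was shared more widely than the calls. Of the 44 tested members, 37 had a negative difference in iWAT (84.1%), beside 54.4% of all tested genes. The median difference was -0.43 over the members and -0.06 over all genes. All 16 Gst genes were negative, with a median of -0.67, and so were 14 of 18 P450, 4 of 6 Sult and 3 of 4 Ugt genes. These genes share arrays and are not independent of each other. For 9 members the groups did not overlap, all lower in scoparia mice, beside 8.97% of all genes that did not overlap and were lower. They were Gsto2, Gstm4, Gstt3 and Cyp4f14 with Gstt1, Gstm1, Gstm5, Gstm6 and Gsta4. Gsta4, which conjugates the lipid peroxidation product 4-hydroxynonenal, had 8.30, 7.73, 7.32 and 7.51 in iWAT of scoparia mice against 8.86, 8.91, 8.49 and 8.43 in iWAT of control mice, a difference of -0.96 ± 0.40 (limma adjusted p = 0.111). The mitochondrial Gstk1 differed by -0.67 ± 0.22 (limma adjusted p = 0.0645). The largest positive difference was that of Ugt8a, the ceramide galactosyltransferase, at 0.61 ± 0.26 (limma adjusted p = 0.119). Its signals were 6.11, 6.02, 6.26 and 5.50 in iWAT of scoparia mice and 4.53, 5.71, 6.08 and 5.16 in iWAT of control mice, and the groups overlapped.

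The count of 5 rested on the arrays in the fit. With the 8 iWAT arrays alone, 0 members passed and the 5 genes had adjusted p of 0.0902 to 0.144 in limma. It was also 0 without iWAT control array 1, iWAT control array 4, iWAT scoparia array 2 or iWAT scoparia array 3, each left out alone, and 1 without iWAT scoparia array 4. Of all genes, 0% to 2.2% were called in these 5 fits. It was 2 without eWAT control array 1, eWAT scoparia array 2 or eWAT scoparia array 3 (beside 5.03% to 5.45% of all genes). It was 3 without eWAT control array 4 or eWAT scoparia array 1 (beside 6.01% and 5.34%). It was 10 without iWAT control array 3, where 27.6% of all genes were called, and 11 without eWAT control array 2, where 13.8% were. In these fits the values normalized over all 16 arrays were kept, so an eWAT array entered the iWAT contrast only through the shared spread. The median over the members stayed at -0.43 without any of these eWAT arrays. Across the 16 such fits each of the 5 genes lost its call in 5 to 10 of them, at adjusted p from 0.0501 to 0.149 (limma), and kept its negative sign. Without both iWAT control arrays 1 and 4, 0 members passed, the median over the members was -0.24, and 15 of 16 Gst genes stayed negative. Gsto2 then differed by -1.20 (limma adjusted p = 0.157), Cyp4f14 by -0.88 (0.104), Gstt3 by -0.75 (0.18), Gstm4 by -0.63 (0.406) and Gstp2 by -0.56 (0.339). Under median scaling in place of quantile normalization, 13 members passed, all lower, beside 17.2% of all genes in either direction, and the median of all genes was then -0.16. The mean signal of the 44 members on each array was 8.04, 8.01, 7.97 and 7.89 in iWAT of scoparia mice, against 8.42, 8.30, 8.32 and 8.53 in iWAT of control mice, so that all 4 scoparia arrays were lower.

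Lymphocyte markers moved beside these enzymes. Of 9 B cell markers 8 were on the array, with Pax5 detected on 0 arrays, and their summed signal ran from 1202 to 14149 in iWAT of scoparia mice and from 233 to 4686 in iWAT of control mice. All 9 T and NK cell markers were on the array, and their sum ran from 1898 to 17206 in iWAT of scoparia mice and from 1038 to 6961 in iWAT of control mice. Of the tested markers, 7 of 7 B cell markers (median difference 1.82, 0 called) and 8 of 8 T and NK cell markers (median 1.30, 2 called) were positive. The scoparia array with the highest sums, array 4, also had the lowest mean of the members in its group. Adipocyte markers summed to 127129 to 148303 in iWAT of scoparia mice and 132128 to 150036 in iWAT of control mice, which overlap. The part of these cells in the lower enzyme signals was not tested.

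In eWAT the extract had no effect on these genes that passed the threshold. None of the 44 members was called (0, beside 0% of all genes), 1 member had an unadjusted p under 0.05 (beside 5.92% of all genes), and 24 differences were positive and 20 negative. The median was 0.03, as it was over all genes. The smallest p was that of Sult4a1, a brain sulfotransferase with no settled substrate. It had 5.36, 5.46, 5.19 and 5.34 in eWAT of scoparia mice and 5.14, 4.85, 4.58 and 5.10 in eWAT of control mice, and was the 1 member whose eWAT groups did not overlap, beside 5.14% of all genes in either direction. Its difference was 0.42 ± 0.19 (limma adjusted p = 0.809). For the genes that fell in iWAT, the eWAT differences were 0.11 ± 0.25 for Gsto2, 0.18 ± 0.27 for Gstm4, -0.34 ± 0.20 for Gstp2 and 0.30 ± 0.19 for Gstt3. Cyp4f14 was detected on 0 of 4 eWAT arrays of scoparia mice and 1 of 4 of control mice, which gives no fold.

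**Figure D3:**
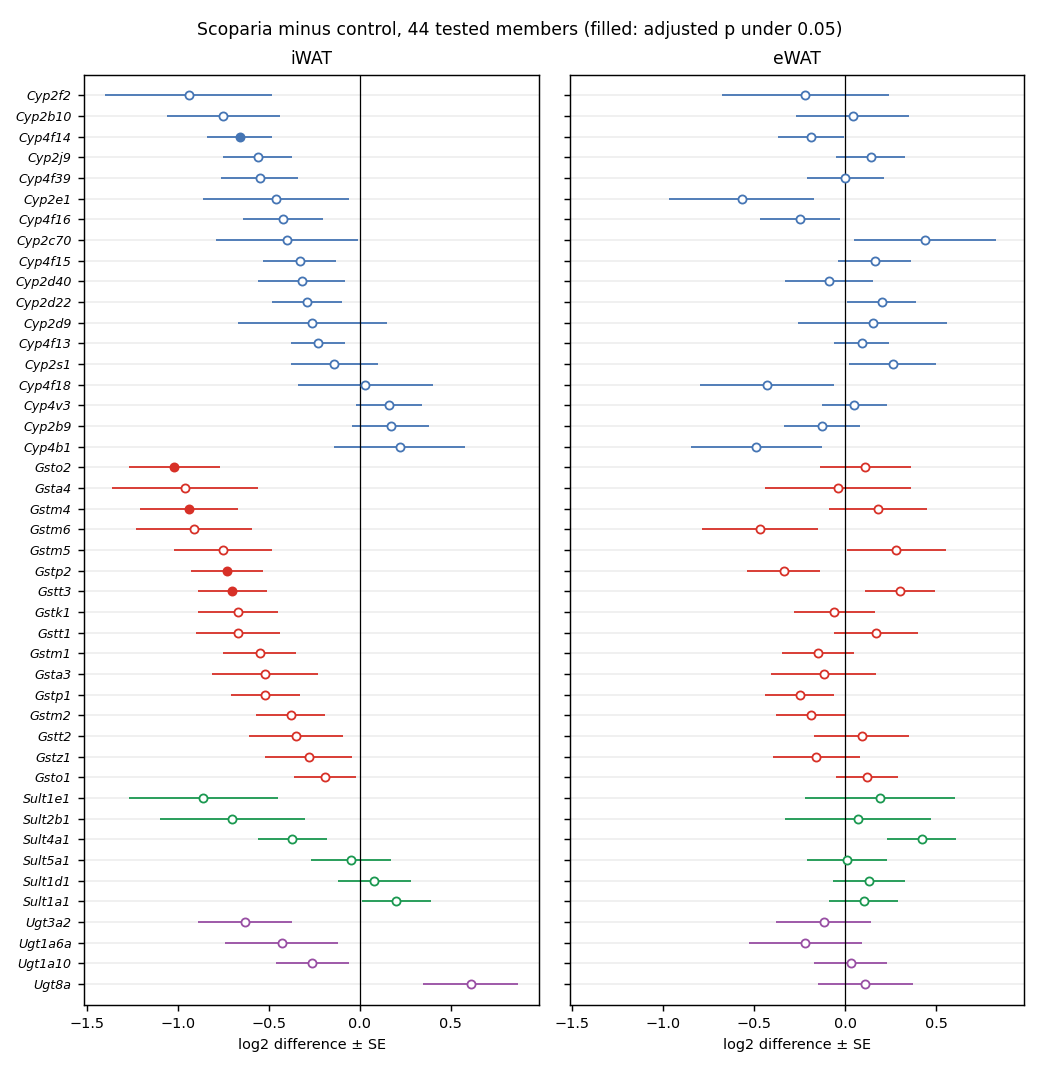
Difference of scoparia minus control (horizontal axis, log2 ± SE, 4 arrays against 4) for the 44 tested members in iWAT (left) and eWAT (right), with filled points for an adjusted p under 0.05. In iWAT all 16 Gst genes lie left of 0, and in eWAT 9 of 16 do, with no filled point.

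Whether the diet effect differed between depots was tested as an interaction. None of the 44 members passed (0, beside 0.0543% of all genes), and 7 had an unadjusted p under 0.05 (beside 16.2% of all genes). The smallest was Gstt3, whose diet effect in iWAT minus that in eWAT was -1.0 ± 0.27 (limma adjusted p = 0.122). Gsto2 followed at -1.13 ± 0.36 (0.172), Gstm4 at -1.12 ± 0.38 (0.185) and Sult4a1 at -0.79 ± 0.27 (0.187). A difference between the diet effects in the depots was therefore not called for any member. With limma array weights 2 members passed, Gstt3 and Gstm4 (limma adjusted p = 0.0449 and 0.045), beside 5.67% of all genes.

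Averaged over both depots of a mouse (8 mouse means), 0 members passed, beside 0% of all genes, and 6 members had an unadjusted p under 0.05 (beside 21.6% of all genes). Gstm6 (-0.69 ± 0.18) and Gstp2 (-0.53 ± 0.15) had the smallest p (limma adjusted p = 0.159 for each). The second Gstm6 probe differed by -0.05 ± 0.23 (limma adjusted p over all probes = 0.921). Of the 44 differences 36 were negative, 16 of 16 among the Gst genes, with a median of -0.23 beside -0.01 over all genes. This average holds the iWAT arrays already described. Without control mouse 3, 5 members passed, beside 19% of all genes. With array weights 9 passed (1 higher and 8 lower in scoparia mice), beside 25.3% of all genes.

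The depots themselves were compared within each diet. Cyp2f2, Sult1a1 and Ugt8a were called higher in iWAT than in eWAT in both scoparia mice and control mice. Cyp2s1, Gstm1, Ugt1a10 and Ugt3a2 were called lower in both. The control calls of Sult1a1, Ugt8a, Gstm1 and Ugt1a10 were lost with the 8 control arrays alone (limma adjusted p = 0.15, 0.105, 0.12 and 0.0825). Median scaling lost Sult1a1 in scoparia mice (limma adjusted p = 0.177) and Gstm1 and Ugt1a10 in control mice (0.229 and 0.143). In scoparia mice 8 of the 44 members were called, 3 higher and 5 lower in iWAT. That is 18.2%, beside 10.6% of all genes (4.35% higher and 6.24% lower). In control mice 16 were called, 12 higher and 4 lower (36.4%, beside 24.8% of all genes, 13.1% higher and 11.7% lower). The 3 higher calls of scoparia mice are 100% of that list and 25% of the 12 of control mice. The 4 shared lower calls are 80% of the 5 of scoparia mice and 100% of the 4 of control mice.

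**Figure D4:**
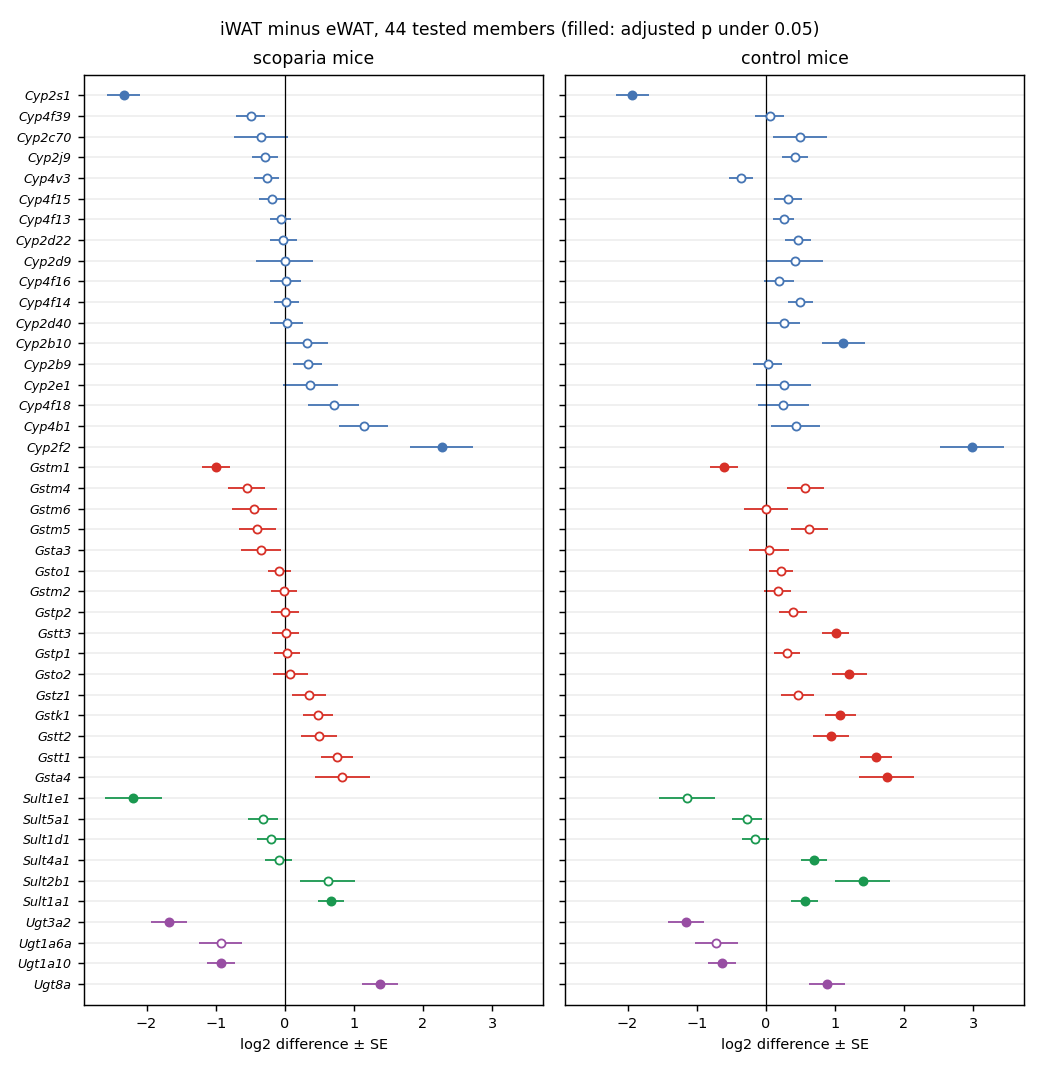
Difference of iWAT minus eWAT (horizontal axis, log2 ± SE, 4 arrays against 4) for the 44 tested members in scoparia mice (left) and control mice (right), with filled points for an adjusted p under 0.05. Cyp2f2 lies farthest right and Cyp2s1 farthest left in both panels, and 6 Gst genes are filled right of 0 in the control panel.

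Cyp2f2, known from mouse lung for activating naphthalene, had 6.63, 7.01, 7.30 and 7.96 in iWAT and 4.81, 4.77, 5.10 and 5.17 in eWAT of scoparia mice. In control mice it had 7.14, 10.02, 8.07 and 7.43 in iWAT and 4.79, 5.64, 4.97 and 5.33 in eWAT. No iWAT array overlapped with an eWAT array, although the iWAT control arrays spread widely through array 2. The probe was detected on 2 of 4 eWAT arrays in each diet. The differences were 2.27 ± 0.46 in scoparia mice, 4.81-fold higher (limma adjusted p = 0.00476), and 2.98 ± 0.46 in control mice, 7.91-fold higher (limma adjusted p = 0.000661). The difference in control mice was 2.36 without iWAT control array 2 and 3.86 without iWAT control arrays 1 and 4. With a normexp offset of 50 in place of 16, which shrinks differences near the background, it was 1.51 in scoparia mice and 2.22 in control mice, called in each. Cyp2s1, an extrahepatic P450, ran the other way. It had 4.84, 4.85, 5.34 and 5.79 in iWAT and 7.16, 7.67, 7.48 and 7.82 in eWAT of scoparia mice. In control mice it had 5.82, 5.26, 4.81 and 5.49 in iWAT and 7.17, 7.39, 7.06 and 7.50 in eWAT. The depots were more than 1 log2 unit apart in each diet, without overlap. It was 5.03-fold lower in iWAT of scoparia mice (-2.33 ± 0.24, limma adjusted p = 3.01e-05) and 3.81-fold lower in iWAT of control mice (-1.93 ± 0.24, limma adjusted p = 0.000134). The probe was detected on 2 of 4 iWAT arrays of scoparia mice and 3 of 4 of control mice, and with the offset of 50 the differences were -1.62 and -1.33, called in each. The promoters of this opposed pair, both from chromosome 7, are shown for reference; Cyp2f2 lies on the plus strand of GRCm38.p6 (chr7:27119705-27120004) and Cyp2s1 on the minus strand (chr7:25816476-25816775). Neither held a motif that was searched, so no letter is in capitals.
Cyp2f2: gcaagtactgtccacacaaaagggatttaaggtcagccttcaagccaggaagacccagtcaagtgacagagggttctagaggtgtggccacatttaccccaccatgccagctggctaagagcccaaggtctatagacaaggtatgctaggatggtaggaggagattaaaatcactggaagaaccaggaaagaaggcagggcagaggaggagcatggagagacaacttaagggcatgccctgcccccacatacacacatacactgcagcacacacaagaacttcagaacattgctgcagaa
Cyp2s1: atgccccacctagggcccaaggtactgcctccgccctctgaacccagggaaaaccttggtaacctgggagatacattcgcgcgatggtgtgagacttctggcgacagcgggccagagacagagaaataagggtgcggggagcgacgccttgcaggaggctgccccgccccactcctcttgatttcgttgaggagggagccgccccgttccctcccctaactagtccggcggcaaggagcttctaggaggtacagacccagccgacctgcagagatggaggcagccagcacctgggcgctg
With 43.5% of aligned columns identical, they were less alike than the pi pair (76.4%).

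Sugar-transferring enzymes were split. Ugt8a was detected on 0 of 4 eWAT arrays in either diet, so it passed the filter only through iWAT, the depot where it was higher. It had 6.11, 6.02, 6.26 and 5.50 in iWAT of scoparia mice, where it was at least 1.9-fold higher than in eWAT (limma adjusted p = 0.00251). In control mice, with 4.53, 5.71, 6.08 and 5.16 in iWAT and detection on 2 of 4 arrays, it was at least 1.31-fold higher (limma adjusted p = 0.0239). The fitted differences, which are no bounds, were 1.38 in scoparia mice and 0.88 in control mice, and 0.74 and 0.44 with the offset of 50. The call in control mice was lost with the 8 control arrays alone (0.88, limma adjusted p = 0.105). Without iWAT control arrays 1 and 4 the control difference was 1.40. Ugt3a2, known in human for using sugars other than glucuronic acid, was lower in iWAT. Its signals were 6.18, 6.72, 5.97 and 5.86 in iWAT and 8.09, 7.81, 7.63 and 7.85 in eWAT of scoparia mice, a difference of -1.67 ± 0.26 without overlap (limma adjusted p = 0.000791). In control mice they were 7.03, 6.52, 6.64 and 7.04 in iWAT and 8.25, 8.19, 7.08 and 8.33 in eWAT, a difference of -1.16 ± 0.26 (limma adjusted p = 0.00689). Ugt1a10, of the glucuronidating Ugt1a cluster, differed by -0.92 ± 0.20 in scoparia mice and -0.63 ± 0.20 in control mice (limma adjusted p = 0.00659 and 0.0306). The call in control mice was lost with the animal as a block (limma adjusted p = 0.057), under median scaling (0.143), with array weights (0.071), with the 8 control arrays alone (0.0825) and without iWAT control arrays 1 and 4 (0.0744). Genes of the Ugt1a cluster share their last exons, so that its probe may read several of them; Ugt1a6a differed by -0.93 ± 0.31 and -0.72 ± 0.31 and was not called.

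Among sulfotransferases, Sult1e1, which sulfates and so inactivates oestrogens, was lower in iWAT of scoparia mice. It had 4.75, 5.13, 5.11 and 5.02 in iWAT and 6.36, 6.82, 7.66 and 7.95 in eWAT of scoparia mice, without overlap (-2.19 ± 0.41, limma adjusted p = 0.00246). With the offset of 50 the difference was -1.47, and it was called. In control mice it had 4.85, 5.94, 7.01 and 5.65 in iWAT and 6.36, 6.73, 7.36 and 7.57 in eWAT. There the depots overlapped and the difference of -1.14 ± 0.41 missed the threshold (limma adjusted p = 0.0521), but passed with the animal as a block (limma adjusted p = 0.023). The difference between these depot effects was not called (-1.05 ± 0.58, limma adjusted p = 0.366). Sult1a1, the phenol sulfotransferase, had 12.45, 12.55, 12.47 and 12.32 in iWAT and 11.63, 11.69, 11.90 and 11.90 in eWAT of scoparia mice. It was higher in iWAT by 0.67 ± 0.19 in scoparia mice and 0.56 ± 0.19 in control mice (limma adjusted p = 0.0308 and 0.0383). With the animal as a block it was not called in scoparia or in control mice (limma adjusted p = 0.0669 and 0.0675). Sult2b1, which sulfates cholesterol and pregnenolone, was higher in iWAT of control mice (1.40 ± 0.40, limma adjusted p = 0.0196). Its 4 iWAT control arrays were 7.16, 5.55, 5.27 and 7.48, with arrays 1 and 4 well above arrays 2 and 3, and without both of them the difference was 0.45 (limma adjusted p = 0.284). A second Sult2b1 probe differed by 0.72 ± 0.32 and did not pass (limma adjusted p over all probes = 0.108). Sult4a1 was higher in iWAT of control mice by 0.70 ± 0.19 (limma adjusted p = 0.0167). Its probe was detected on 2 of 4 eWAT control arrays. The call was lost with the 8 control arrays alone (limma adjusted p = 0.0691) and without iWAT control arrays 1 and 4 (0.13).

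**Figure D5:**
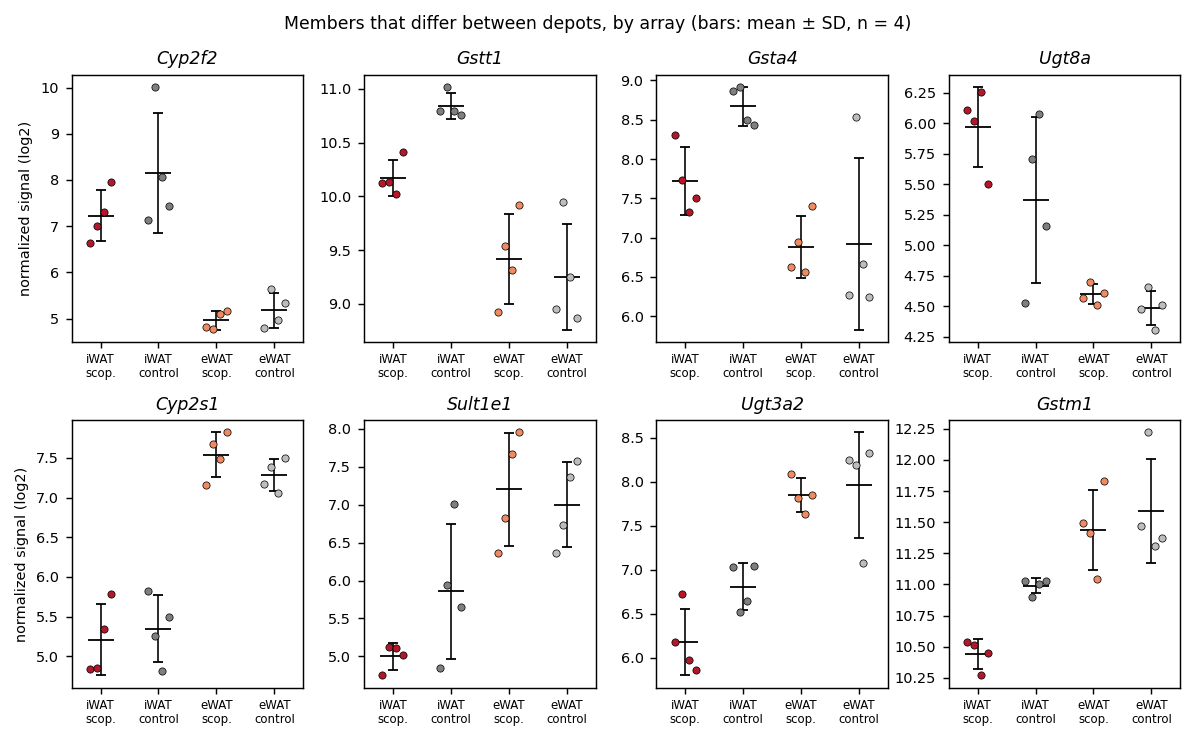
Normalized log2 signal (vertical axis) of 8 members called between depots in at least 1 diet, 1 point per array in the 4 groups, with bars for the mean ± SD of 4 arrays. Cyp2f2, Gstt1 and Ugt8a sit higher in iWAT and Cyp2s1, Ugt3a2 and Gstm1 higher in eWAT by their group means, while Gsta4, Sult1e1 and Ugt8a have arrays that reach into the other depot's range.

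Glutathione S-transferases were higher in iWAT of control mice in 6 of 16 genes and lower in 1, and in scoparia mice 0 were higher and 1 was lower. Of all genes, 13.1% were called higher and 11.7% lower in control mice. In scoparia mice these shares were only 4.35% and 6.24%, so that fewer calls stood in scoparia mice over the whole array too. The 6 were Gsta4 (1.75 ± 0.40), Gstt1 (1.59 ± 0.23), Gsto2 (1.21 ± 0.25), Gstk1 (1.08 ± 0.22), Gstt3 (1.01 ± 0.19) and Gstt2 (0.94 ± 0.26), with limma adjusted p from 0.000493 for Gstt1 to 0.0182 for Gstt2. Without eWAT control array 2 the difference of Gsta4 was 2.28. The second Gsto2 probe differed by 0.48 ± 0.20 in control mice and did not pass (limma adjusted p over all probes = 0.0848). Their differences in scoparia mice were 0.83 for Gsta4, 0.75 for Gstt1, 0.08 for Gsto2, 0.48 for Gstk1, 0.01 for Gstt3 and 0.50 for Gstt2. None of these changes in the depot difference passed the interaction test, and the control depot contrast uses the iWAT control arrays that also enter the iWAT diet contrast. Gstt1 in eWAT had 8.92, 9.54, 9.31 and 9.92 in scoparia mice and 8.95, 9.95, 9.25 and 8.87 in control mice, below its iWAT arrays in both diets. In scoparia mice it missed the threshold (limma adjusted p = 0.0519) and passed with the animal as a block (0.0337). Gstm1 was the exception, lower in iWAT. It had 10.54, 10.51, 10.27 and 10.45 in iWAT and 11.49, 11.41, 11.04 and 11.83 in eWAT of scoparia mice, a difference of -1.0 ± 0.20 (limma adjusted p = 0.00416). In control mice it had 11.03, 10.90, 11 and 11.03 in iWAT and 11.47, 12.22, 11.31 and 11.37 in eWAT, a difference of -0.61 ± 0.20 (limma adjusted p = 0.039) that was not called with the animal as a block (0.0549). Cyp2b10, the P450 induced through the receptor CAR in mouse liver, was higher in iWAT of control mice by 1.12 ± 0.31 (limma adjusted p = 0.018), and by 0.55 without iWAT control arrays 1 and 4 (limma adjusted p = 0.261).

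Leaving out 1 of the 16 arrays at a time kept the depot calls of Cyp2f2, Cyp2s1 and Ugt3a2 in both diets in all 16 fits. In scoparia mice Ugt8a, Sult1e1, Gstm1 and Ugt1a10 kept theirs too, and in control mice Gsta4, Gstk1, Gsto2, Gstt1 and Gstt3 did. Each of the other 9 calls was lost in 1 to 7 of the 16 fits. Sult1a1 in scoparia mice was lost without any of arrays 1, 2 and 3 of either depot of scoparia mice (limma adjusted p = 0.055 to 0.0887). In control mice it was lost without iWAT control arrays 2 or 3, iWAT scoparia array 3 or eWAT control arrays 1, 3 or 4 (0.0509 to 0.113). Gstm1 in control mice was lost without iWAT control arrays 1, 2 or 4, eWAT control arrays 1 or 2 or eWAT scoparia arrays 1 or 2 (0.0504 to 0.0822). Cyp2b10 was lost without iWAT control arrays 1 or 4 or eWAT control arrays 1 or 3 (0.0506 to 0.0684), and Sult2b1 without iWAT control arrays 1 or 4 or eWAT control array 3 (0.0571 to 0.0717). Gstt2 was lost without iWAT control array 4 or eWAT control arrays 1, 3 or 4 (0.055 to 0.0598), and Ugt8a in control mice without iWAT control array 2 or eWAT control arrays 1, 3 or 4 (0.0518 to 0.0622). Ugt1a10 in control mice was lost without iWAT control array 4 or eWAT control arrays 1 or 2 (0.0631 to 0.0762), and Sult4a1 without eWAT control array 3 (0.0549). In total, 10 members were called in control mice without eWAT control array 3, beside 16.1% of all genes. In scoparia mice 12 were called without eWAT control array 2, beside 13.3%. With the 8 arrays of 1 diet alone, 13 members were called in scoparia mice, beside 18.8% of all genes, and 7 in control mice, beside 6.5%.

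Markers of other cell types differed between the depots beside these enzymes. The 7 mesothelial markers on the array summed to 85.4 to 120 in iWAT and 2064 to 3844 in eWAT of scoparia mice, and to 50.6 to 116 in iWAT and 1753 to 2371 in eWAT of control mice. All 7 were called lower in iWAT in each diet. The 8 macrophage markers summed to 40165 to 43834 in iWAT and 55443 to 69113 in eWAT of scoparia mice, and to 32678 to 45211 in iWAT and 45786 to 70790 in eWAT of control mice, with 6 called lower in iWAT in each diet. Lpl, which adipocytes express too, makes up most of these sums. Without it, a choice made after the values were seen, the other 7 summed to 6118 to 7866 in iWAT and 23670 to 31397 in eWAT of scoparia mice, and to 6011 to 8871 in iWAT and 10209 to 33074 in eWAT of control mice. Of 7 tested B cell markers, 7 were called higher in iWAT of scoparia mice and 1 in control mice (median differences 3.41 and 1.52). Of 8 tested T and NK cell markers, 7 were called higher in iWAT of scoparia mice, and 4 higher and 1 lower in control mice (median differences 3.12 and 1.73). Of the list for mammary and skin epithelium, Krt5 and Cldn4 were detected on 0 arrays and Csn3 on 1. Of the 4 tested (Cdh1, Krt8, Krt14 and Krt18), 3 were called lower in iWAT of scoparia mice, and 2 lower and 1 higher in control mice. Whether their signal came from such epithelium was not tested. The part of these cell types in the depot differences of the enzymes was not tested either.

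The other genes of drug metabolism were read from lists chosen for their role, with earlier results of these data known. In iWAT of scoparia mice 4.39% of all genes were called lower, which stands beside the count of each list below. The lists are small, so that 1 or 2 calls say little about a list. Genes that supply electrons and cofactors fell in iWAT of scoparia mice in 2 of 15 tested cases: the glutathione synthetase Gss (-0.98 ± 0.28, limma adjusted p = 0.0402) and the P450 reductase Por (-0.72 ± 0.21, limma adjusted p = 0.0429). Por had 11.10, 10.96, 10.56 and 10.33 in iWAT of scoparia mice against 11.15, 11.57, 11.56 and 11.56 in iWAT of control mice, with no overlap. Of 20 tested oxidising and reducing enzymes outside the P450 families, the carbonyl reductase Cbr1 and the flavin monooxygenase Fmo5 fell (by 0.72 and by 0.65 on the log2 scale). Of 14 other conjugating enzymes the sulfurtransferase Tst fell. It had 7.59, 6.97, 6.89 and 6.95 in iWAT of scoparia mice against 8.79, 8.61, 8.36 and 8.69 in iWAT of control mice, far apart and without overlap (-1.51 ± 0.22, limma adjusted p = 0.0172). Among 5 transporters Slc22a18 and Abcc3, an exporter of glucuronides, fell (-1.13 ± 0.24 and -0.74 ± 0.22). Among 12 regulators Nr1h3, the liver X receptor alpha, fell (-0.61 ± 0.17, limma adjusted p = 0.0395). With the 8 iWAT arrays alone, without iWAT control array 4 or without iWAT scoparia array 3, 0 of all genes on the array were called in this contrast, so that each of these calls was lost there. No gene of these lists rose in iWAT (0, beside 4.41% of all genes). In eWAT, over both depots and in the interaction 0 were called, beside 0%, 0% and 0.0543% of all genes. List medians in iWAT were -0.18 for cofactor supply, -0.32 for the oxidising and reducing enzymes, -0.24 for the other conjugating enzymes, -0.37 for transporters and -0.11 for regulators, beside -0.06 over all genes.

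Between depots these lists moved in both directions. In control mice the carboxylesterase Ces1f (2.05 ± 0.25), Tst (1.75 ± 0.22), the microsomal Mgst3 (1.04 ± 0.22), the soluble epoxide hydrolase Ephx2 (0.97 ± 0.17) and Por (0.90 ± 0.21) were higher in iWAT. Ces1f and Mgst3 were higher in iWAT of scoparia mice too, by 1.38 and 0.83. Fmo1, a flavin monooxygenase, was higher in iWAT by 0.83 in scoparia mice and 0.78 in control mice. Higher in iWAT of control mice were also Fmo5 (0.91), the alcohol dehydrogenase Adh1 (0.89), Hsd11b1 (0.86), which regenerates active glucocorticoid, the transporter Slc22a18 (0.85), the microsomal Mgst2 (0.76) and Cbr1 (0.61). The aldo-keto reductase Akr1b8 was lower in iWAT, with differences of -2.59 ± 0.36 in scoparia mice and -1.41 ± 0.36 in control mice (limma adjusted p = 0.000298 and 0.0124). The aldehyde dehydrogenase Aldh3b1 was lower as well, with differences of -1.69 in scoparia mice and -0.94 in control mice. Gclm, which supports glutathione synthesis, and the carbonyl reductase Cbr3 were lower in iWAT of scoparia mice (-1.47 ± 0.28 and -2.07 ± 0.34), as was the quinone reductase Nqo2 (-0.78 ± 0.18). Nfe2l2, which encodes the antioxidant regulator Nrf2, was lower in iWAT in both diets, with differences of -0.72 ± 0.20 in scoparia mice and -1.56 ± 0.20 in control mice (limma adjusted p = 0.0297 and 0.000152). Bach1, a repressor of Nrf2 targets, was lower in iWAT of control mice (-1.84 ± 0.26, limma adjusted p = 0.000319). So were Mafg, a small Maf partner of Nrf2 (-0.84 ± 0.21), the glucocorticoid receptor gene Nr3c1 (-0.82 ± 0.23) and the drug exporter gene Abcb1b (-0.68 ± 0.24), while Keap1, which holds Nrf2 back, was higher (0.49 ± 0.16). In all, 2 of 20 oxidising and reducing enzymes were called higher and 4 lower in iWAT of scoparia mice, beside 4.35% and 6.24% of all genes. In control mice 7 were called higher and 2 lower, beside 13.1% and 11.7%. The interaction was called for none of the 20 (0).

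Several members were called in no contrast. Cyp2e1, which oxidises ethanol, acetone and small solvents, averaged 13.10 ± 0.35 in iWAT of scoparia mice and 13.56 ± 0.28 in iWAT of control mice. In eWAT it averaged 12.73 ± 0.84 in scoparia mice and 13.30 ± 0.80 in control mice. Its diet differences were -0.46 ± 0.40 in iWAT and -0.57 ± 0.40 in eWAT, neither called (limma adjusted p = 0.432 and 0.917), and the eWAT control arrays ran from 12.62 to 14.45. Gstz1, the maleylacetoacetate isomerase of tyrosine breakdown, differed by -0.28 ± 0.24 in iWAT and -0.16 ± 0.24 in eWAT by diet. The fatty acid hydroxylases Cyp4v3 and Cyp4b1 were not called in any contrast, and Cyp4b1 came closest between the depots of scoparia mice (1.14 ± 0.36, limma adjusted p = 0.0555). Gsta3, an alpha-class enzyme, differed by -0.52 ± 0.29 in iWAT and -0.12 ± 0.29 in eWAT by diet. A p that misses the threshold with 4 arrays a group does not show that these genes did not differ.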

How the data were processed

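RNA from iWAT and eWAT of 8 mice was hybridised to 16 Illumina bead arrays; per the labels, 400 ng of each RNA were amplified with a biotin label. The deposited scanner table gives, per the file headers, each of 25697 probes an intensity (linear, at least 92.2, background not subtracted) and a detection p-value against negative control beads. The authors also deposited normalized intensities, of which 25.0% are at or below 0, as an alternative here. GenomeStudio and limma 3.18.13 stand in the submitters' processing notes without their roles. Scanner intensities were corrected and normalized with neqc (offset 16, quantile, log2) in limma 3.58.1 (R 4.3.3; tables with Python 3.11.15). Kept probes had a detection p under 0.05 on 4 or more arrays, and a gene was tested through its kept probe with the highest mean. Gene names were updated through RefSeq tables of GRCm38.p6, and all 139 member probes matched by current symbol. Promoters came from the same release, which held 87 of the 102 gene names; no source used here gives the build of the array design.

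Tests used lmFit and eBayes of limma with a mean per group (4) on all 16 arrays (12 residual degrees of freedom), or on 8 mouse means over both depots, with Benjamini-Hochberg adjustment over 11050 genes and 6 contrasts taken separately. The fits were tested on simulated data. Members named with values are those called in any contrast, the 6 with the smallest p in each, the 12 with the highest mean level and those detected on 4 of 4 arrays of 1 group and 0 of 4 of another (32 genes); of the other pathway lists, called genes are named. The members and lists were chosen with earlier results of these data known. The same animal numbers (scoparia 16, 17, 18, 20, control 1 to 4) in both depots were taken as pairs; deviations of an animal's arrays from their group means correlated at 0.25, 0.034, 0.249 and 0.0676 for the scoparia mice, against 0.315, -0.207, 0.201 and 0.00258 for the control mice. The labels do not tie RNA samples to tissue pieces, so the spread behind each p-value is that between these samples. Identical values were found in 0 pairs of arrays.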

Additional observations from a re-analysis of the deposited data

Results flagged for a closer look

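Among 128 groups of 4 arrays (32 named members in 4 groups), 4 held an array far from the other 3, with a gap to the nearest of them, as a share of the group's range, above Dixon's critical value. Chance alone flags about 1 group in 20. Gsto1 was lowest on iWAT scoparia array 4, at 10.94 where the others ran from 11.36 to 11.44. Gstt1 was highest on iWAT control array 2, at 11.02 against 10.76 to 10.79 on the others. Gstt2 was highest on eWAT control array 2, at 9.16 against 8.02 to 8.10, and that array was high in Gsta4 too. Ugt3a2 was lowest on eWAT control array 3, at 7.08 against 8.19 to 8.33.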

How the results depend on the processing

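Of the values of single named members under 30 other settings, 5097 kept their direction and their side of the threshold, 114 lost a call and 89 gained one; no called value changed sign. Shares of all genes called in the same fits stand in brackets. For scoparia against control in iWAT, 13 members passed under median scaling (17.2%) and 0 with only the arrays compared (0%). The count was 0 without both iWAT control arrays 1 and 4 (0.0362%), and 0 to 11 when 1 array was left out (0% to 27.6%). In eWAT the count was 0 in each of these fits (0%), also with 1 array left out (0% to 0.127%). Over both depots it was 9 with array weights (25.3%) and 0 to 5 without 1 mouse (0% to 19%). For iWAT against eWAT in scoparia mice it was 13 with only the arrays compared (18.8%), 17 with array weights (33.4%) and 7 to 12 without 1 array (6.22% to 13.3%). In control mice it was 7 with only the arrays compared (6.5%) and 10 to 19 without 1 array (13.6% to 36.9%). For the interaction it was 2 with array weights (5.67%) and 0 without 1 array (0.00905% to 3.87%). Fewer arrays leave fewer degrees of freedom; the other causes were not tested. Under median scaling the median of all genes was -0.16 in iWAT (-0.06 as reported) and -0.24 in the interaction (-0.08 as reported).

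With the animal as a fixed replicate block, 8 members passed between depots in scoparia mice, 14 in control mice and 0 in the interaction. Of all genes, 9.98%, 21.9% and 0% passed in these contrasts. The block gained Gstt1 in scoparia mice and Sult1e1 in control mice, lost Sult1a1 in each diet and Gstm1 and Ugt1a10 (adjusted p = 0.057) in control mice, and changed no other call. As a random block the animal gave 5, 0, 10 and 18 calls (iWAT diet, eWAT diet, depot in scoparia, depot in control), beside 8.67%, 0%, 11.8% and 27.7% of all genes. The replicate number of the titles as a block gave 5, 0, 8 and 17, beside 7.06%, 0%, 9.61% and 23%. Probes near the detection limit, such as Cyp4f14 and Ugt8a, allow only bounds.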
